A study of Rattus norvegicus with 6 samples.

Results

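ABC transporters are membrane pumps and related proteins that carry a conserved ATP-binding cassette. Their genes were followed in rat hearts after repeated dosing with doxorubicin, an anthracycline chemotherapy drug known to injure the heart. Members were all gene symbols that begin with Abc, a family letter from a to g and a digit. This name rule found 46 of the 17487 symbols in the count table. Of these, 13 were grouped as drug efflux pumps (Abcb1a, Abcb1b, Abcg2 and every Abcc symbol) and 33 as the rest. RNA came from the hearts of 6 adult male Wistar rats, an outbred laboratory strain, with 1 library per animal, numbered alike. The doxorubicin group (3 rats) had 3.75 mg/kg of doxorubicin hydrochloride once a week for 4 weeks by tail vein, and the control group (3 rats) had 0.9% sodium chloride by the same route and schedule. The chamber of the heart, the age beyond adult and the time since the last dose were not given in the sources used here, so a response to the last dose and the effect of the whole course cannot be told apart.

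Most ABC proteins use ATP to move lipids, peptides, metal complexes, bile salts or drugs across a membrane. P-glycoprotein, which rats encode with the paired genes Abcb1a and Abcb1b, and the multidrug resistance protein Abcc1 are known for pumping anthracyclines out of cells. The other Abcc members and Abcg2 were grouped with them by name, and not all of these carry anthracyclines. P-glycoprotein and Abcg2 are known from the endothelium of blood vessels, while other family members serve cholesterol export, mitochondria, peroxisomes, potassium channels and the ribosome.

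Among the tested members, the clearest difference lay outside the drug pumps. Abcg1, a cholesterol exporter, was higher in each doxorubicin heart than in any control heart, at 2.88 times the control level. Abcb9, a lysosomal peptide transporter, was lower in each doxorubicin heart, by a small margin. Drug pumps with higher means after doxorubicin included Abcb1a, Abcb1b, Abcc1 and Abcc4. Means were lower for Abcc10 and for Abcc2, Abcc12 and Abcg2, which had too few reads to test. No tested pump had groups that did not overlap. The edgeR quasi-likelihood test, with Benjamini-Hochberg adjustment over all 9205 tested symbols, called 0 of the 28 tested members at an adjusted p under 0.05, where 0.0543% of all tested symbols were called. DESeq2 and edgeR with no filter on low counts each called 1 member (Abcg1), and limma voom called 0. At an unadjusted p under 0.05, 1 member was higher (Abcg1) and 1 lower (Abcb9), against 4% and 4.11% of all tested symbols. Among tested members, complete separation of the groups was seen for 2 higher members (Abcg1 and Abce1) and 1 lower member (Abcb9), where the shares of all tested symbols were 6.39% and 7.06%. Of the members too low to test, Abcb1b and Abca5 had higher and Abcc12 lower counts in every treated heart. They had 1 to 28, 1 to 11 and 0 to 3 counts per library. No share over other untested symbols was computed, so nothing is read from these separations. The counts of tested members stood near the background or below it, so the family as a whole did not stand apart from other genes by number of differences.

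The promoters of 4 members are shown because they bear on the drug pump pair, on a sterol exporter and on the tested member with the lowest log2 fold change. RefSeq promoter windows (build GRCr8, 250 bases before to 50 after the annotated start, 5′ to 3′ on the gene's strand) existed for 36 of the 46 members, and Abcg1 had none. Capitals mark the CCAAT box (CCAAT), the GC box (GGGCGG), the E-box (CACGTG) and the TATA box (TATAAA), searched on both strands, and no marked motifs overlapped each other.
Abcb1a, chr4:26397599-26397898, minus strand: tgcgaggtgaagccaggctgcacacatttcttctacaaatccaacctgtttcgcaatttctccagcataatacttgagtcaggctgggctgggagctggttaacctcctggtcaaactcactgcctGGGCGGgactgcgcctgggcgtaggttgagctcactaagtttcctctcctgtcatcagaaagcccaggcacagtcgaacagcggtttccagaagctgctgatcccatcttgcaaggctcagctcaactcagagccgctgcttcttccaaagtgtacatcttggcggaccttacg
Abcb1b, chr4:26279980-26280279, minus strand: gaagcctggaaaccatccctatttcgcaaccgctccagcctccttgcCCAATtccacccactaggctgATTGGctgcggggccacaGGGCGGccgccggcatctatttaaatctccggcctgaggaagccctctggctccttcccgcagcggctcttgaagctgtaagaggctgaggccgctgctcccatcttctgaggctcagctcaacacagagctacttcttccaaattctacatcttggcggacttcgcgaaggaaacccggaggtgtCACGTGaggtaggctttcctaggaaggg
Abca1, chr5:72596424-72596723, minus strand: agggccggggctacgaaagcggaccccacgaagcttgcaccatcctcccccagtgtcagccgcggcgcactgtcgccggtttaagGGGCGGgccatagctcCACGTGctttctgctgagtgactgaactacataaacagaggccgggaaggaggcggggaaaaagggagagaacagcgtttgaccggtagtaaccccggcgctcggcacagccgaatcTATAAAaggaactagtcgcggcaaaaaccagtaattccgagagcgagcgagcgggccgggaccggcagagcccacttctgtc
Abcb9, chr12:38159902-38160201, plus strand: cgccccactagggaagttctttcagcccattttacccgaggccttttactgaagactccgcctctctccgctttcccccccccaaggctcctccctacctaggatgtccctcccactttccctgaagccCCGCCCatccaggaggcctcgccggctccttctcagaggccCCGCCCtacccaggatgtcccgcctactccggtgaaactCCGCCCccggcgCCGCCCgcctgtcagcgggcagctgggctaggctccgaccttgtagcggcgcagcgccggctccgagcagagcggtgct

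The Abcb1a and Abcb1b windows shared a stretch near the start, with 65 identical bases in 78 aligned columns (83.3%). Only the best local alignment was taken, so likeness outside this stretch was not measured. Abcb1b held 2 CCAAT boxes, a GC box and an E-box, and Abcb1a held a single GC box. The shared stretch ended at base 248 of the Abcb1b window and at base 294 of the 300-base Abcb1a window. The E-box of Abcb1b began after this stretch, at base 273. The Abcb1a window may end before the matching place, so the E-box is not read as a difference between the promoters. Abca1 held a GC box, an E-box and a TATA box, and Abcb9 held 4 GC boxes. A GC box stood in 25 of the 36 member windows and in 34.9% of all 27457 windows. For the CCAAT box the shares were 14 of 36 and 37.7%, for the E-box 4 of 36 and 6.65%, and for the TATA box 5 of 36 and 14.3%. These matches describe letters in the windows and do not show binding. In the RefSeq gene order, Abcb4, Abcb1b and Abcb1a are direct neighbours, and the 3 genes are close relatives.

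Library totals ranged from 2219685 to 3508282 counts, so 3 counts, taken as the smallest detectable level, equal 0.855 to 1.35 CPM (the usual unit of counts scaled to library size) over the libraries. CPM values given for genes were scaled by TMM, the trimmed mean of M-values, and these intervals and floors cover counting error only. The filter on low counts (edgeR's filterByExpr) passed 28 of the 46 members, 8 of 13 drug pumps and 20 of 33 others, and 24 of the 28 had at least 10 counts in every library. Because transcript lengths were not at hand, levels are compared between libraries for a gene and not between genes. Cardiomyocyte markers identified the tissue as heart muscle (Myh6 and Tnnt2 had 35669 to 100494 and 40202 to 62602 counts per library), while of the 3 liver markers Alb and Apoa2 had at most 7 and 2 counts and Ttr had 84 to 132. In bulk tissue, fewer cells of a type and less RNA per cell cannot be told apart. Summed over 6 of the 7 listed cardiomyocyte markers, the level was 68700 to 74980 CPM in control and 52170 to 64300 CPM in treated hearts. The markers differed unequally, with log2 fold changes from -1.62 (Ryr2) to -0.02 (Myl2). Ryr2 passed the adjusted threshold (edgeR adjusted p = 0.044), as did 0.0543% of all tested symbols. Of the 6 markers, 0 had a positive log2 fold change. Groups were lower with no overlap for 3 of them, and for 7.06% of all tested symbols. Myh6 alone averaged 24590 CPM in control and 14820 CPM in treated hearts. Control library 1 stood apart: its summed erythroid markers were 7238 CPM, against 688 to 2655 CPM in the other libraries.

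Drug efflux pumps came next in order of role. P-glycoprotein gene Abcb1a had 1.53, 3.55 and 5.68 CPM in control hearts 1, 2 and 3 and 6.42, 9.36 and 4.13 CPM in treated hearts 1, 2 and 3. Doxorubicin library 3 lay below control library 3, so the groups overlapped. The log2 fold change, doxorubicin minus control throughout, was 0.83 (SE 0.50, edgeR adjusted p = 0.706), on 4 to 30 counts per library. Without control library 1, where it had 4 counts, the log2 fold change was 0.49, and without control library 3 it was 1.39 (unadjusted p 0.0409 by edgeR). The summed level of 8 endothelial markers, none of them at 0, was 1215, 1314 and 1399 CPM in control and 1401, 1391 and 1028 CPM in treated hearts, and its part in the level of Abcb1a was not tested.

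Its partner Abcb1b failed the low-count filter, with 1, 4 and 4 counts in control hearts 1, 2 and 3 and 9, 8 and 28 counts in treated hearts 1, 2 and 3. All 3 doxorubicin values lay above all control values, and doxorubicin library 3 held most of the group's reads. With no filter, the log2 fold change of Abcb1b was 2.05 (SE 0.68), with an edgeR unadjusted p of 0.00429 and an adjusted p of 0.258, in a fit that called 0.467% of 13050 symbols. DESeq2 gave it an adjusted p of 0.479. Taken as a pair, Abcb1a and Abcb1b had 1.91, 5.33 and 6.82 CPM in control hearts 1, 2 and 3 and 9.31, 11.9 and 12.4 CPM in treated hearts 1, 2 and 3. The summed level of the pair was higher in every doxorubicin library than in every control library, a description with no test, since the pair was summed after its values were seen.

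The split within the P-glycoprotein pair differed most in doxorubicin library 3. Abcb1b took 66.7% of the pair's counts there (Wilson 95% interval 51.6 to 79.0, 42 counts). In treated hearts 1 and 2 it took 31.03% (17.3 to 49.2) and 21.1% (11.1 to 36.4). In control hearts 1, 2 and 3 it took 20% (3.62 to 62.5), 33.3% (13.8 to 60.9) and 16.7% (6.68 to 35.9). The interval of doxorubicin library 3 stood above those of doxorubicin libraries 1 and 2 and control library 3 and met those of control libraries 1 and 2. How reads shared by these near relatives were counted is not given in the sources used here, so the split is uncertain.

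Abcc1, which encodes multidrug resistance protein MRP1, an exporter of glutathione conjugates and anthracyclines, had 5.73, 7.55 and 9.94 CPM in control and 10.3, 9.67 and 14.4 CPM in treated hearts 1, 2 and 3. Only doxorubicin library 2 fell short of the highest control, by a small margin. Its log2 fold change stood at 0.55 (SE 0.35, edgeR adjusted p = 0.724), and at 0.36 without doxorubicin library 3.

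Abcc4, an exporter of cyclic nucleotides, had 4.96, 10.2 and 11.9 CPM in control and 8.67, 16.2 and 13.0 CPM in treated hearts. Its groups overlapped, with a log2 fold change of 0.47 (SE 0.38, edgeR adjusted p = 0.784), which was 0.19 without control library 1, 0.26 without doxorubicin library 2 and 0.75 without control library 3. For Abcc5, an exporter of nucleotide analogues, the values were 23.3, 58.2 and 61.9 CPM in control and 63.9, 54.3 and 44.2 CPM in treated hearts. Only control library 1 stood low, and the log2 fold change of 0.17 (SE 0.30) became -0.15 without it. Abcc3, an exporter of conjugated bile acids, averaged 19.2 ± 6.62 CPM in control and 19.5 ± 1.51 CPM in treated hearts (SD, n = 3). Abcc10 had the only negative log2 fold change among the tested pumps, -0.47 (SE 0.38), with 6.87, 12.4 and 8.80 CPM in control and 5.14, 9.05 and 5.90 CPM in treated hearts. For Abcc10 it was -0.23 without control library 2, -0.31 without doxorubicin library 1 and -0.74 without doxorubicin library 2.

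The remaining pumps rested on few reads. Abcg2, the breast cancer resistance protein, had 2, 9 and 7 counts in control and 2, 5 and 6 counts in treated hearts, and no difference was detectable at this depth. Abcc2, the pump of the bile canaliculus, had 0 to 4 counts per library, and Abcc6 had 0 to 1. Abcc12 had 1, 2 and 3 counts in control and 0 in each doxorubicin library, at or under the floor of 3 counts in all 6.

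Over the 8 tested members grouped as drug pumps, Abcc8 and Abcc9 among them, 7 log2 fold changes were positive, with a median of 0.26. Among the 20 other tested members 13 were positive, with a median of 0.07, and over all tested symbols 52.1% were positive, with a median of 0.02. None of the 8 pumps had groups that did not overlap, and no test of the pumps against the rest was made. Control library 1 moved with this pattern: it was the lowest control for 6 of the 8 pumps, for 9 of the 20 others and for 40.1% of all tested symbols. Measured from the control mean, the median log2 difference of the pumps was -0.54 in control library 1 and 0.18 and 0.39 in control hearts 2 and 3. In treated hearts 1, 2 and 3 it was 0.30, 0.32 and 0.16, within the range of the controls. Without control library 1 the median log2 fold change of the 8 pumps was 0.21, and for the other members it was -0.06.

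**Figure D1:**
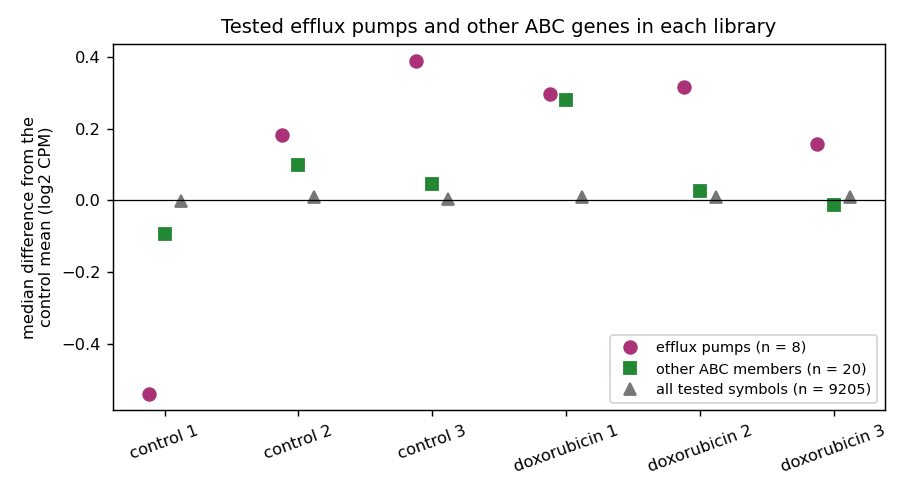
Median difference from the control mean in log2 CPM (vertical axis) in each of the 6 libraries (horizontal axis). Shown are the 8 members grouped as drug pumps (Abcc8 and Abcc9 among them), 20 other ABC genes and all tested symbols. The pumps lie at -0.54 in control library 1 and between 0.16 and 0.39 in the other 5 libraries.

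The Abcc family also holds the sulfonylurea receptors Abcc8 and Abcc9, which do not pump drugs but form the ATP-sensing subunits of the potassium channels that open when cellular ATP falls. Abcc9 had 105, 336 and 289.9 CPM in control and 289.5, 353 and 287 CPM in treated hearts 1, 2 and 3. Control library 1 had less than any other library, and the other 5 lay close together. Its log2 fold change stood at 0.35 (SE 0.32, edgeR adjusted p = 0.817), and without control library 1 it was -0.01. Summed pericyte and smooth muscle markers, cells in which Abcc9 is known to be high, were 568, 624 and 739 CPM in control and 632, 673 and 486 CPM in treated hearts. None of these 8 markers was at 0, and their part in the level of Abcc9 was not tested.

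Abcc8 averaged 57.7 ± 11.0 CPM in control and 60.7 ± 3.51 CPM in treated hearts (SD, n = 3), with a log2 fold change of 0.07 (SE 0.20). The pore subunits that pair with these receptors, Kcnj8 and Kcnj11, are their direct neighbours in the genome. Kcnj8 showed a log2 fold change of 0.09 (SE 0.21) and Kcnj11 of -0.11 (SE 0.22), and both had overlapping groups. Leaving the sulfonylurea receptors out, the median log2 fold change of the 6 remaining tested pumps was 0.32.

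Among the 28 tested members, the log2 fold change farthest from 0 was that of a sterol transporter. Abcg1 moves cholesterol from cells to high-density lipoprotein and is known from macrophages. It had 6.87, 5.33 and 9.66 CPM (18, 12 and 34 counts) in control hearts 1, 2 and 3. In treated hearts 1, 2 and 3 it had 16.7, 27.8 and 20.04 CPM (52, 89 and 68 counts). The lowest doxorubicin value was well above the highest control value. Means were 7.29 ± 2.19 and 21.5 ± 5.68 CPM (SD, n = 3). Its log2 fold change stood at 1.53 (SE 0.32), with an edgeR unadjusted p of 0.00034 and an adjusted p of 0.125, so it did not pass the threshold.

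Abcg1 was positive in all 16 alternative fits, between 1.31 and 1.80, and its adjusted p ranged from 0.0144 to 0.378 over them. It passed the adjusted threshold in 2 of them. DESeq2 gave an adjusted p of 0.0216, where 0.567% of the 13048 symbols with an unadjusted p were called. Some of these symbols had no adjusted p, so the share among symbols that could be called was larger. With no filter on low counts, edgeR gave Abcg1 an adjusted p of 0.0144.

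Summed macrophage markers, like Abcg1, were higher in each doxorubicin heart than in any control heart. The summed level of 8 macrophage markers was 157, 173 and 176 CPM in control and 189, 292 and 189 CPM in treated hearts 1, 2 and 3, and none of the 8 was at 0. Doxorubicin library 2 was highest for both the marker sum and Abcg1, while control library 1 was lowest for the sum and control library 2 for Abcg1. Of the 8 markers, 7 had a positive log2 fold change (median 0.37). At an edgeR unadjusted p under 0.05, 2 were higher, against 4% of all tested symbols. These were Cd163 (1.15, edgeR adjusted p = 0.492) and Mrc1 (0.82, edgeR adjusted p = 0.586). The groups of Mrc1 did not overlap, where 6.39% of all tested symbols were higher with no overlap. The part of macrophages in the level of Abcg1 was not tested.

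**Figure D2:**
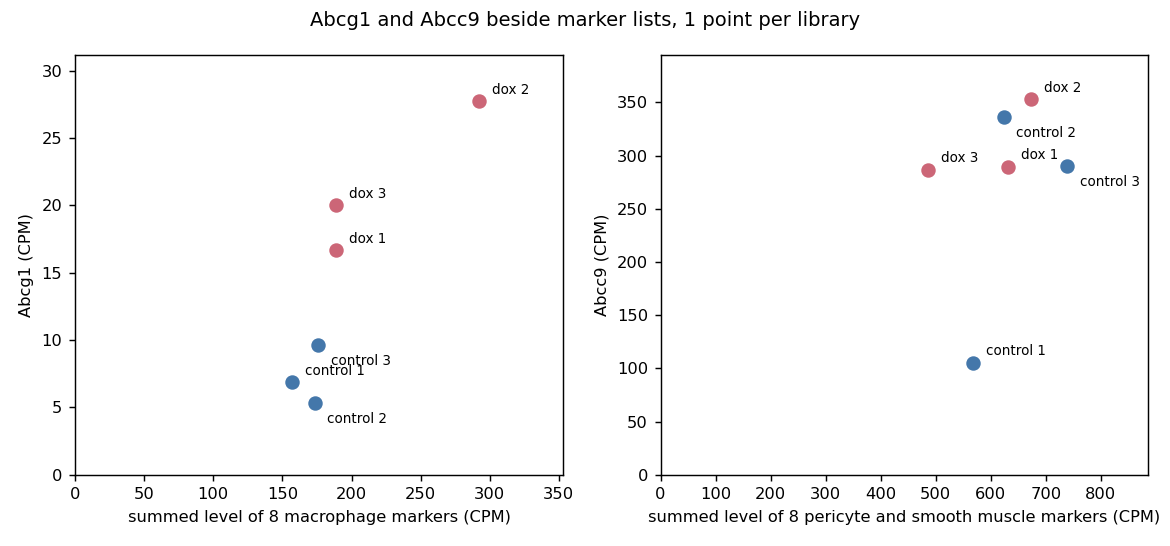
Left, Abcg1 (CPM, vertical axis) against the summed level of 8 macrophage markers (CPM, horizontal axis), and right, Abcc9 against 8 pericyte and smooth muscle markers, with 1 point per library, blue for control and red for doxorubicin. Doxorubicin library 2 is highest on both axes at left (292 and 27.8 CPM), and control library 1 is lowest for Abcc9 at right (105 CPM).

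Abca1, which loads cholesterol onto apolipoprotein A-I, had 4.96, 7.11 and 2.84 CPM in control and 4.49, 13.4 and 10.02 CPM in treated hearts 1, 2 and 3. Doxorubicin libraries 2 and 3 were above all controls, and doxorubicin library 1 was among them. Its log2 fold change stood at 0.95 (SE 0.47, edgeR adjusted p = 0.631), and at 0.63 without control library 3 and 0.60 without doxorubicin library 2. Abcg1, Abca1 and Mylip are known targets of the liver X receptors Nr1h2 and Nr1h3, and Mylip was named after its values were seen. Mylip, which encodes a ligase that degrades the low-density lipoprotein receptor, showed a log2 fold change of 0.50 (SE 0.26, edgeR adjusted p = 0.65), with overlapping groups. It was the highest of the 8 tested genes among 11 listed for sterol handling. Of these 8, 5 were positive and 3 negative, and 0 had an unadjusted p under 0.05 in edgeR. The listed genes Srebf1, Apoe and Apoa1 were not tested, with at most 2, 2 and 4 counts in any library. A part of the receptors in these levels was not tested. The receptors themselves overlapped between groups, with 11.2 to 15.9 CPM for Nr1h3 and 94.2 to 132 CPM for Nr1h2 over the 6 libraries.

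Other tested sterol and lipid transporters had estimates near 0. Abca2, Abca7 and Abca8a gave log2 fold changes of -0.09, -0.02 and 0.07, each with overlapping groups. Abca5 failed the filter with 3, 3 and 1 counts in control and 8, 5 and 11 counts in treated hearts. Its doxorubicin values were all higher, and with no filter the log2 fold change was 1.48 (SE 0.80, edgeR adjusted p = 0.706). Abca4 and Abcg4 had 1 to 8 counts per library. For Abca13, Abca15, Abca17 and the intestinal sterol pair Abcg5 and Abcg8, no library had more than 3. Abcb4, the phosphatidylcholine transporter next to the P-glycoprotein genes, had 29.8, 43.1 and 29.2 CPM in control and 47.8, 35.0 and 51.9 CPM in treated hearts. Its groups overlapped, with a log2 fold change of 0.41 (SE 0.24, edgeR adjusted p = 0.69), which was 0.62 without control library 2. Abcb11, the bile salt pump, had 1 count in all.

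Transporters of mitochondria and peroxisomes differed little. Abcb8, linked to iron export from heart mitochondria, had 100.4, 112 and 85.2 CPM in control and 71.3, 87.0 and 98.2 CPM in treated hearts, a log2 fold change of -0.21 (SE 0.19). Abcb10, which acts in mitochondria in heme synthesis, and Abcb6, linked to porphyrin transport, gave log2 fold changes of 0.04 (SE 0.23) and 0.15 (SE 0.19). All 3 had overlapping groups. Peroxisomal Abcd3 had 77.1, 109 and 103 CPM in control and 84.4, 89.2 and 64.6 CPM in treated hearts, a log2 fold change of -0.28 (SE 0.20, edgeR adjusted p = 0.76), which was -0.17 without control library 2 and -0.14 without doxorubicin library 3. Its paralog Abcd2 had 4 to 10 counts per library. Pex19, the carrier that brings membrane proteins such as Abcd3 to peroxisomes, had 123, 96.8 and 104 CPM in control and 82.8, 72.7 and 64.6 CPM in treated hearts. The groups of Pex19 did not overlap, where 7.06% of all tested symbols were lower with no overlap. Its log2 fold change was -0.56 (SE 0.19, edgeR adjusted p = 0.396).

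Lysosomal Abcb9, which carries peptides, had 35.1, 21.3 and 18.2 CPM in control and 10.3, 15.3 and 17.98 CPM in treated hearts 1, 2 and 3. The highest doxorubicin value came within a fraction of the lowest control value. Its log2 fold change stood at -0.77 (SE 0.31), with an edgeR unadjusted p of 0.0279 and an adjusted p of 0.541. Without control library 1 it was -0.43 (unadjusted p 0.188 by edgeR), and without doxorubicin library 1 it was -0.57 (unadjusted p 0.112). Abcd4, the lysosomal vitamin B12 transporter, showed a log2 fold change of 0.08 (SE 0.37).

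Some ABC proteins have no membrane part and work on the ribosome. Abce1, which recycles ribosomes, had 41.6, 47.5 and 49.4 CPM in control and 61.3, 54.3 and 66.3 CPM in treated hearts, with no overlap between groups. Its log2 fold change was 0.39 (SE 0.19), with an edgeR unadjusted p of 0.0621 and an adjusted p of 0.624. Abcf1, a factor of translation initiation, showed a log2 fold change of 0.13 (SE 0.19), Abcf2 of -0.12 (SE 0.17) and Abcf3 of 0.13 (SE 0.19). Of the 9 genes listed as translation partners of these proteins, 0 passed the adjusted threshold and 0 had an unadjusted p under 0.05 in edgeR.

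The Abcg3 family, a rodent branch of near copies related to Abcg2, had 5 symbols, 4 of them tested. Log2 fold changes ran from -0.30 for Abcg3l1 to 0.52 for Abcg3l4, all with overlapping groups and SEs of 0.42 to 0.49, and Abcg3l2 failed the filter with 2 to 24 counts per library. Summed over the 5 symbols, the family had 16.4, 25.8 and 39.2 CPM in control and 39.2, 29.0 and 24.5 CPM in treated hearts. Reads shared by the copies make the single values uncertain.

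**Figure D3:**
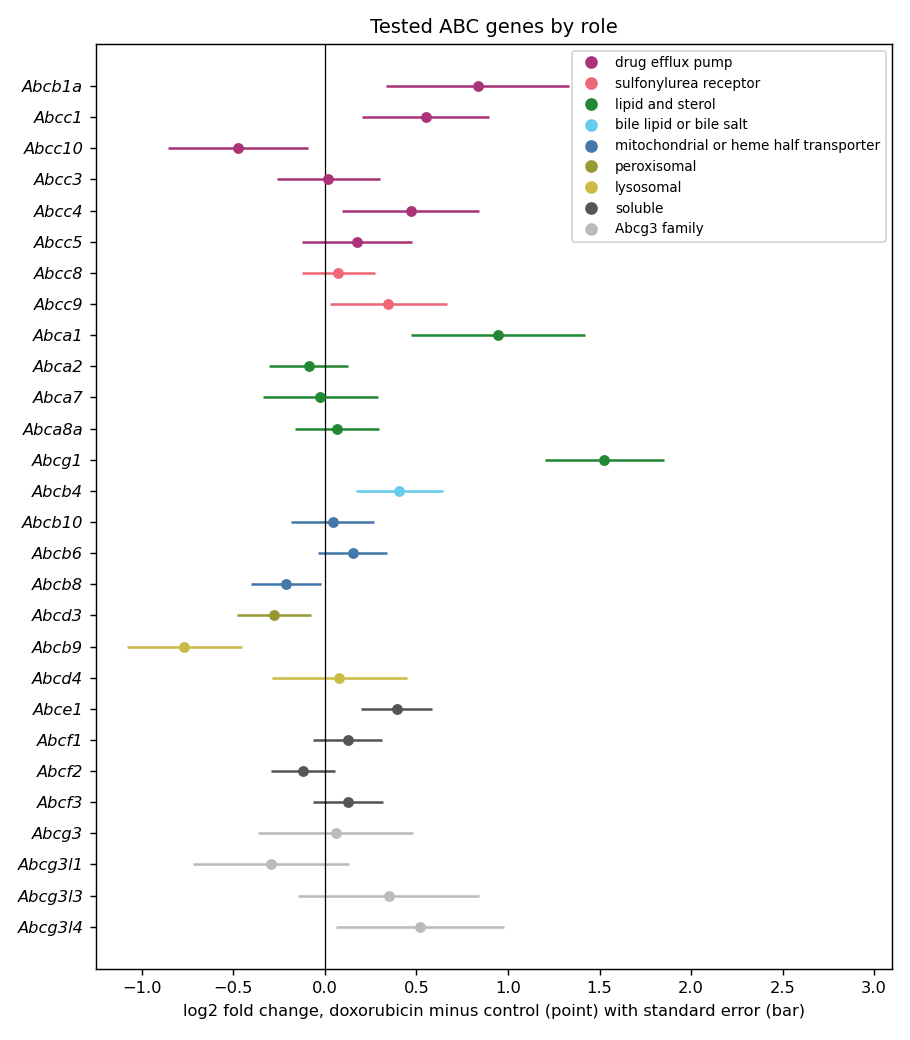
Log2 fold change, doxorubicin minus control (horizontal axis), for the 28 tested ABC genes (rows), coloured by role; points are edgeR estimates and bars their standard errors. Abcg1 lies farthest right at 1.53 and Abcb9 farthest left at -0.77.

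**Figure D4:**
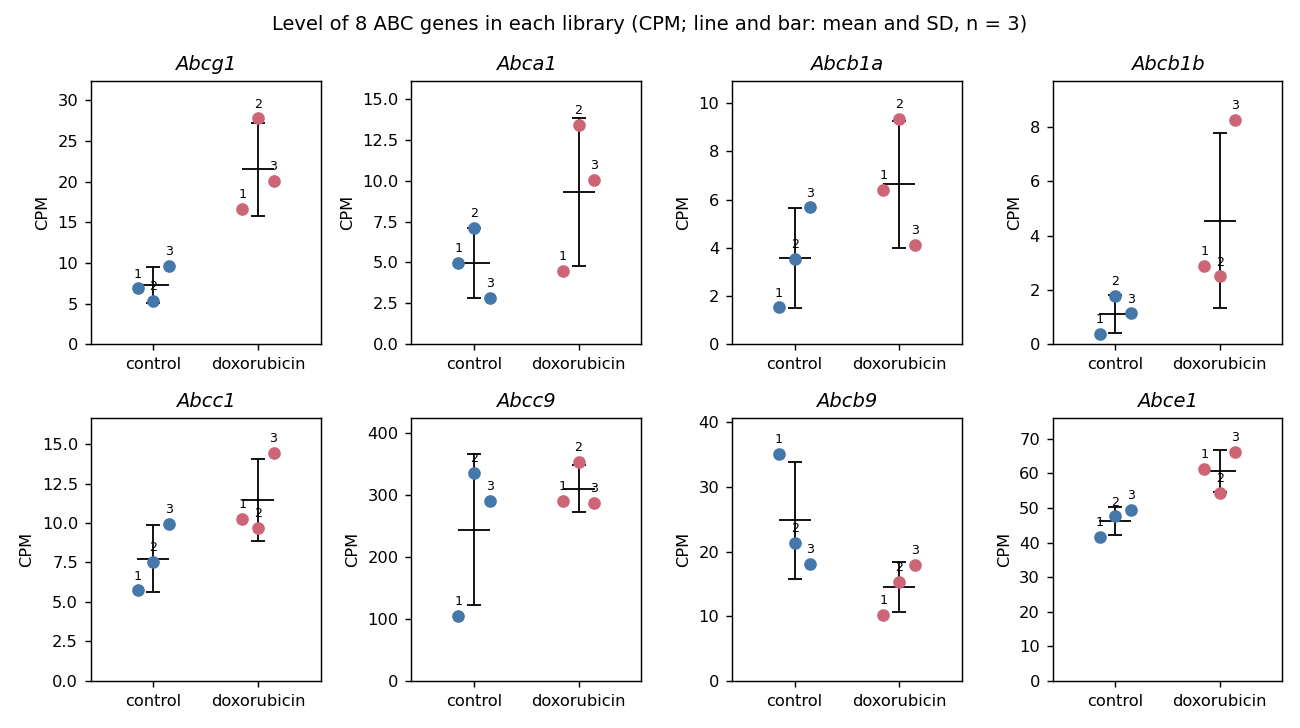
CPM (vertical axes, from 0) of 8 ABC genes in control (blue) and doxorubicin (red) libraries, numbered by replicate; the line and bar are the mean and SD of 3 libraries. The groups of Abcg1, Abcb1b, Abcb9 and Abce1 do not overlap, and those of Abca1, Abcb1a, Abcc1 and Abcc9 do. Abcb1b was too low to test. Groups did not overlap for 10.71% of tested members and 13.45% of all tested symbols.

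Genes around the family were read in the same fit. The ABC proteins that go under other symbols include the peptide transporters Tap1 and Tap2, which load antigen-presenting molecules. Their log2 fold changes were 0.28 (SE 0.25) and 0.54 (SE 0.27), with overlapping groups. Cftr, the chloride channel of the Abcc family, was listed at 0. Of 74 listed partner and regulator genes 60 were tested. In edgeR 0 passed the adjusted threshold, and 2 were higher and 2 lower at an unadjusted p under 0.05, counts near the 4% and 4.11% of all tested symbols, so nothing is read from them. The higher genes were Nfe2l2, the master regulator of antioxidant genes (log2 fold change 0.46, SE 0.21), and the stress regulator Foxo3 (0.94, SE 0.36). Both had groups that did not overlap. The lower genes were Pex19 and the mitochondrial carrier Slc25a39 (-0.51, SE 0.23), a glutathione importer. Groups with no overlap were seen for 3 higher and 2 lower of the 60 tested genes (8.33%), against 13.45% of all tested symbols. Of 13 uptake carriers for organic ions and nucleosides, 8 were tested, 3 with positive and 5 with negative log2 fold changes, and 0 had an unadjusted p under 0.05. The vault protein Mvp showed a log2 fold change of 0.17 (SE 0.22).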

How the data were processed

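mRNA libraries (Watchmaker kit, Illumina sequencing, per the labels' protocols) were made from 6 rat hearts. The authors deposited 1 table of raw read counts per gene symbol, without normalization. FastQC, Trimmomatic, STAR, HTSeq and the build mRatBN7.2 are named in the submitters' processing notes. The annotation, counting mode and strand setting are not given in the sources used here.

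Of 18473 rows, those sharing a symbol were summed, and each of the 46 members stood on a single row. Doxorubicin was compared with control by edgeR's quasi-likelihood test (edgeR 4.0.16, R 4.3.3) with TMM scaling, robust dispersion and filterByExpr (minimum count 10, minimum total 15), fitted on all symbols, with Benjamini-Hochberg adjustment over 9205 symbols and a threshold of 0.05. SEs are the absolute log2 fold change over the square root of F. The code was tested on simulated data. Log2 CPM used a prior count of 2. Alternatives were other scalings and filters, DESeq2 1.42.0, limma voom 3.58.1, non-robust dispersion, separate rows, the replicate number as a block and each library left out. Python 3.11.15, pandas 2.3.3, biopython 1.88 and matplotlib 3.10.9 were used for tables, sequence matching and figures.

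The members, lists and tests were chosen with earlier results of these data known. Every tested member is described, by role. Members with an unadjusted p under 0.05 or with groups that did not overlap are given in every library. Genes of other lists are named at an unadjusted p under 0.05, as channel partners or as ABC proteins under other symbols, and any other gene was chosen after its values were seen. All 46 symbols matched the RefSeq table (GRCr8), used for chromosomes, neighbours and promoter sequences, and 4 tested members (Abcb1a, Abcc10, Abce1 and Abcg3l3) overlap another protein-coding gene there, so their reads may be split or dropped. The values of 2 untested members and of 1 gene of another list are not reported here.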

Additional observations from a re-analysis of the deposited data

How the results depend on the processing

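With 3 animals per group and 4 to 1132 counts per library for the tested members, moderate differences of low genes were not detectable, and 18 members were not tested. The count of members past the adjusted threshold was 0, and 1 (Abcg1) with DESeq2 and with no filter on low counts, and 0 to 0 when each library was left out. The count at an unadjusted p under 0.05 was 2, and 5 with no filter and 2 to 4 when each library was left out. With the replicate number as a block it was 1 (Abcg1), with 0 past the adjusted threshold. Same-numbered libraries did not deviate together (correlations 0.0211, -0.185 and -0.0559). With 3 libraries per group these values cannot show whether the animals were matched by number.

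The median log2 fold change of the drug pumps was 0.26, and 0.38 with limma voom, 0.37 with the block, 0.69 for Abcb1a and Abcc1 alone and 0.21 to 0.45 when each library was left out. For the other members it was 0.07, and -0.06 to 0.20 when each library was left out. Scaling by library size only moved the median of all symbols from 0.02 to 0.10 and Abca7 to 0.045.

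In all 16 alternatives 14 of 28 members kept their direction. The others turned when a library was left out, with log2 ranges of -0.27 to 0.032 (Abca2), -0.29 to 0.20 (Abca7), -0.13 to 0.32 (Abca8a), -0.094 to 0.20 (Abcb10), -0.0032 to 0.24 (Abcb6), -0.14 to 0.33 (Abcc3), -0.15 to 0.42 (Abcc5), -0.0077 to 0.24 (Abcc8), -0.0083 to 0.65 (Abcc9), -0.068 to 0.29 (Abcd4), -0.033 to 0.22 (Abcf1), -0.049 to 0.26 (Abcf3), -0.22 to 0.30 (Abcg3) and -0.060 to 0.74 (Abcg3l3). The cause of these turns was not tested.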
